A study of Mus musculus with 4 samples.

Results

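The sites described are the 5638 windows of 282 bp at which the glucocorticoid receptor (GR) was listed as bound after 1 h of corticosterone, taken whole from the peak list of that library. They are 5638 of the 8522 peaks in the 3 lists of the study. Chromatin immunoprecipitation and sequencing (ChIP-seq) of GR was done in 33AP1C9 cells, a line with C127 as its parent, derived from mouse mammary epithelium. Both groups used here carried the same stable MMTV-pp7 reporter and GFP-tagged PP7 coat protein and were kept in hormone-depleted serum. One group was untreated and the other received 600 nM corticosterone for 1 h, with 1 library each, so no difference below has a replicate check and none was tested. Per the labels, a cocktail of GR antibodies was used, and the catalogue number given for the second antibody differs between the samples. Expression was not measured in these files, so the mammary identity of the cells was not checked against marker genes. The 1 h library held 90556119 tags and the untreated library 79203826. Tags below are per 10000000 tags of each library unless called raw, and the untreated value at a site is that library's tags in the same window.

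GR is a nuclear receptor that waits in the cytoplasm with chaperones until a glucocorticoid binds it, and then enters the nucleus and binds DNA. Its classical element is an inverted repeat of AGAACA with a short spacer between the arms. Most of its sites in other cells lie away from promoters, in open chromatin that is often shared with AP-1, a dimer of Jun and Fos family proteins. In mammary epithelium glucocorticoids are known for supporting differentiation, survival and milk production.

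Few of the sites lay on promoters, but those that did give a view of the DNA under them. Of 32619 promoter windows in RefSeq (assembly GRCm38.p6, 250 bases before to 50 after an annotated start), 100 overlapped a peak by at least 1 bp (0.307%). These belonged to 90 peaks, or 1.60% of the list. The full element, AGAACA and TGTTCT with any 3 bases between them, searched on both strands, stood in 1 of the 100 windows, which was that of Sgk1, and in 3 of all windows (0.0092%). A looser form, GNACA and TGTNC with any 3 bases between them, which every full element also matches, stood in 16 of the 100 windows (Wilson 95% interval 10.1 to 24.4%) and in 156 of all windows (0.478%). The windows with a looser match held 15 distinct matches under 15 peaks, because a pair of Fam107a windows shared one. Each of the 15 lay wholly inside its peak, at a median of 11 and at most 40 bases from the peak centre.

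The upstream 250 bases of 5 of these promoters are shown 5′ to 3′ on the strand of the gene, to let the matches be read in place. Capitals mark the looser match. They were chosen after their values were seen, from the 16 windows. Sequences are from RefSeq, GRCm38.p6.
Sgk1 (chr10:21993640-21993889, plus strand): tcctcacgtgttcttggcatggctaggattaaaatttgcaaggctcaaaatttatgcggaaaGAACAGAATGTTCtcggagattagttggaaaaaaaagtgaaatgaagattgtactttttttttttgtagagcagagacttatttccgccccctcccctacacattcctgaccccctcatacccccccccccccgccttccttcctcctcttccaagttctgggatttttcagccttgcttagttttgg
Slc10a6 (chr5:103629404-103629653, minus strand): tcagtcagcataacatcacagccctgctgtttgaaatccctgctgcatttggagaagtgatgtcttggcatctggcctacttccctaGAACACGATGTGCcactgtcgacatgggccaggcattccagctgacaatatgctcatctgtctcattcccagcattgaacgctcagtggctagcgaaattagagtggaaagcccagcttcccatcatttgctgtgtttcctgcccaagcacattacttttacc
Map3k6 (chr4:133240568-133240817, plus strand): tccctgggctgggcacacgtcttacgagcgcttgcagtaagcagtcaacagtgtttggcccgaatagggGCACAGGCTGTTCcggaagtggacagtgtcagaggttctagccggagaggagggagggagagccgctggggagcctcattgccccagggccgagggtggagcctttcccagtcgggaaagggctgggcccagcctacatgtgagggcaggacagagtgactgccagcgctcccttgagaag
A230028O05Rik (chr16:25059389-25059638, plus strand): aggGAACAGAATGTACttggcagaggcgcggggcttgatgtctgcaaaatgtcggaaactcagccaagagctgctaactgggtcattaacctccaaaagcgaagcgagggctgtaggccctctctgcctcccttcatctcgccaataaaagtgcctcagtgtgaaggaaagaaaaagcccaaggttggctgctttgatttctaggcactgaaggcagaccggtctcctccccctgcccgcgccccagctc
Mir100hg (chr9:41474643-41474892, plus strand): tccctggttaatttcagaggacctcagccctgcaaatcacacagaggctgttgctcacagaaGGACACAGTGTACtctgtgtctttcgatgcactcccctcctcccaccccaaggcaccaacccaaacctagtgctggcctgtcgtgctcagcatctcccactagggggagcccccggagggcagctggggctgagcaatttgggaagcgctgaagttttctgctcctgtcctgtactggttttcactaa

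The strongest of these 5 peaks was not at a protein-coding gene. The long non-coding RNA gene A230028O05Rik had 143 tags at 1 h and 0.884 in the untreated library, a ratio of 162 (exact 95% counting interval 78.3 to 403). Slc10a6, a transporter of sulphated steroids, had 129 tags at 1 h and 1.77 untreated, a ratio of 73.2 (43.4 to 134), with its match centred 1 base from the peak centre. Sgk1, a serum- and glucocorticoid-regulated kinase, had 46.9 and 1.14 tags, a ratio of 41.3 (21.6 to 91.0). Its match began at -188 from the annotated start, counted as 0, and was the one that extends to the full element. Map3k6, a stress-activated kinase, had 37.3 and 0.631 tags, with the match at -181. Mir100hg, the host transcript of several microRNAs, had 62.9 and 1.64 tags, with the match at -188. The promoter with a full element was therefore not the one with most tags, and the windows under peaks without a looser match reached higher levels still. The promoter of Tns2, a focal adhesion protein, held the second strongest promoter peak with 186 tags at 1 h and 1.52 untreated, and that of the non-coding gene 4930471E19Rik the strongest with 208 and 2.27, both without a match.

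The other coding promoters with a looser match carried weaker peaks. Mt1, a metal-binding metallothionein, had 27.3 tags against 1.01 untreated, with the match at -94. Map7d2, Fam107a and Lca5l had 20.3, 15.1 and 14 tags. A single AGAACA stood in 29 of the 100 windows against 19% of all windows. The AP-1 site TGANTCA stood in 20 of the 100 against 7.85% of all. Both of these motifs were added after the data were seen, and AGAACA is part of the full element. The windows under peaks had a mean GC content of 52.2%, against 53.9% over all windows, and 41.0% belonged to protein-coding genes, against 64.5% of all. The part of these differences in the motif shares was not tested. A match is a run of letters and not a measured contact.

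The 1 h signal stood far above the untreated signal across the list, and it had to, since the caller kept no peak under 6-fold over that library. At 1 h the lowest site held 7.51 tags, the median site 18.3 and the highest 433. In the untreated library the same windows held from 0 to 4.92 tags, with a median of 1.39. The lowest 1 h value thus lay above the highest untreated value. The median ratio of 1 h over untreated was 14.2 (13.9 to 14.6, order-statistic interval over sites), 70.8% of sites had a ratio of at least 10, and 179 sites had a ratio of at least 100. For these ratios a window without untreated tags was given a floor of 3 raw tags. Counts below that floor but above none were kept as counted. Under 2 times the minimum ratio lay 2264 sites (40.2%), a set that overlaps those with a ratio of at least 10. Summed over all windows, 167638 tags at 1 h compared with 8103 untreated.

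Strength was uneven. The 564 strongest peaks, 10% of the list, held 37.5% of all tags in peaks, and 995 peaks (17.6%) sufficed for 50% of them. The 10 strongest together held 2.04%. Tags went from 300.5 at rank 10 to 213.5 at rank 40, 145 at rank 100 and 60.3 at rank 564, and 55.0% of peaks had under 20 tags. Tags at 1 h and untreated tags in the same window had a Spearman rho of 0.33 over 5638 sites, given as a description. Both enter the minimum fold by which sites were listed.

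**Figure D1:**
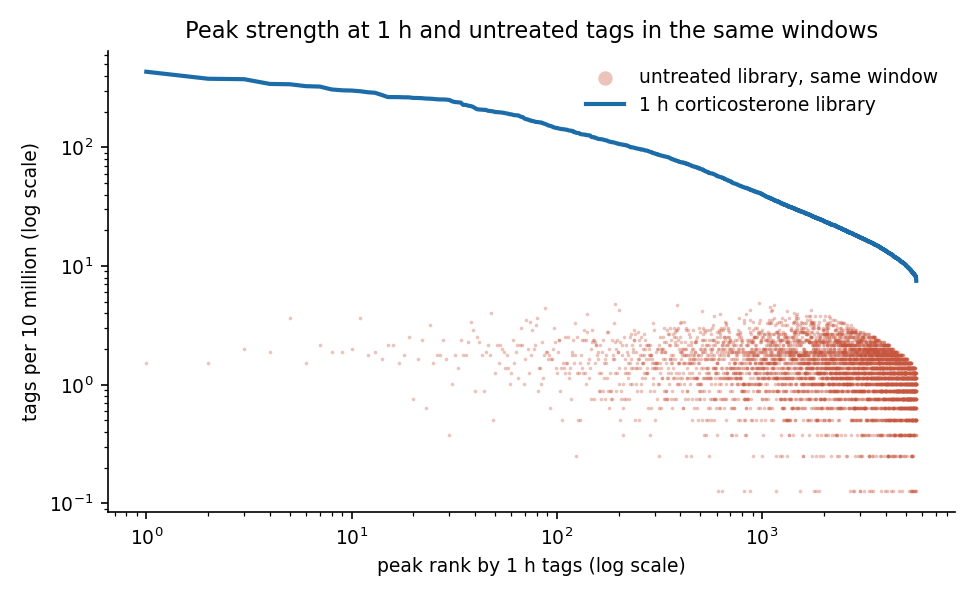
Tags per 10000000 (y, log scale) against peak rank by 1 h tags (x, log scale). The blue line is the 1 h library and each red point the untreated library in the same window, leaving out 11 windows with 0 untreated tags; the blue line stays above the red points, from 433 down to 7.51 tags.

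A list made with a threshold ends at it. The caller's minimum score was 75, and 26 peaks stood at that score. Of these 26, 3 were named, inside Cuedc1, inside Ror1 and 157 kb from Tmx1. Each held 70 raw tags or 7.73 on the scaled measure, above the lowest of the list, 7.51. Against 1.14, 0.505 and 0.757 untreated tags their ratios were 6.80, 15.3 and 10.2. Sites just under the threshold are not part of the list, so no value is given for them.

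The untreated tags separated some strong sites from others. Among the 564 strongest peaks the most untreated tags were at a site 315 kb from Nr2f2, an orphan nuclear receptor gene, with 4.80 untreated and 109 at 1 h (ratio 22.7, 16.4 to 32.2). Sites inside Ly6f, 12.6 kb from Pmch, 2.36 kb from the tyrosine kinase gene Fes and 55.0 kb from Cpne8 followed with 4.67, 4.42, 4.29 and 4.17 untreated tags and 77.1, 157, 107 and 65.0 at 1 h. At the other end, 5 of these strong sites held 2 raw untreated tags each. The strongest lay 11.1 kb from Trarg1, a regulator of glucose transporter traffic, with 133 tags against 0.253 (ratio 526, 145 to 4349). The others were the site nearest to Prps1, within the group of sites at Tsc22d3, and those nearest to Slc25a30, inside Lnpep and nearest to Sphk1, with 86.6, 73.1, 70.2 and 61.0 tags. The lowest ratios among strong sites were 15.6 at the Cpne8 site, 16.5 inside Ly6f, 20.8 at 211 kb from Tm4sf1, 21.4 inside Ube2e2 and 21.5 at 76.5 kb from Trib1.

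At 11 sites no untreated tag was counted, which leaves a low level possible. Ratios there were set against a floor of 0.379 tags (3 raw tags per library). The exact limits, and not the values on the floor, are the lower bounds. The strongest of the 11 sites lay inside Greb1, a hormone-responsive gene, with 30.8 tags at 1 h. This was 81.3-fold higher when set against that floor, with an exact lower limit of 65.7. Aff1, a transcription elongation factor gene, held 29.5 tags inside its span, 77.9-fold higher on the same floor (exact lower limit 62.9). Nfkbia, which encodes an inhibitor of NF-kappaB, held 12.5 tags, 33.0-fold higher on that floor (exact lower limit 26.4). A further 198 sites had 1 to 3 untreated tags, and their ratios rest on wide counting intervals.

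The focus ratio, a fraction that the caller gives for how tightly tags flank the peak centre in the orientation of a single bound point, was high across the list and higher at strong sites. Its median was 0.841 (0.838 to 0.843), with 5% of peaks below 0.712 and 5% above 0.931. In the strongest 10% of peaks the median was 0.903 (quartiles 0.870 and 0.927), and over 10 classes of equal size it declined in each further class to 0.814 (0.770 and 0.855) in the weakest. The quartile ranges of the strongest and the weakest 10% did not overlap. Spearman's rho between tags and focus ratio was 0.39 over 5638 sites. Both are from the same tags, and few tags make the ratio less precise.

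Strong peaks differed in shape all the same. Among the 564 strongest, the highest focus ratio was 0.972 inside Dock10, a guanine nucleotide exchange factor gene, followed by 0.970 at a site inside the clock gene Per1, 0.969 inside Micall1 and 0.969 near the aquaporin gene Aqp11. The lowest was 0.667 at a site 7.54 kb from Zfp697 that held 207 tags (chromosome 3, 98374284 to 98374566). Sites nearest to Rnf152, Pcdh18, Pnlip and Trib1, at 88.5, 56.6, 22.7 and 76.5 kb, had 0.691, 0.709, 0.711 and 0.715 at 62.3 to 67.9 tags. The Zfp697 site stood 22.5-fold over its surrounding 10 kb, against 43.4-fold at the Dock10 site, which held 69.3 tags. A single site had a focus ratio of 0.997 and a fold of 6306 over its surroundings, with 40.4 tags at 1 h and 2 raw untreated tags. It lay on chromosome 4 (122019946 to 122020228), 281 kb from its nearest gene Gm10573, and was named after its values were seen. Such a fold at this tag level means very few tags in the surrounding 10 kb, for a reason that was not tested. The highest 1% of the list by that fold began at 60.7.

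**Figure D2:**
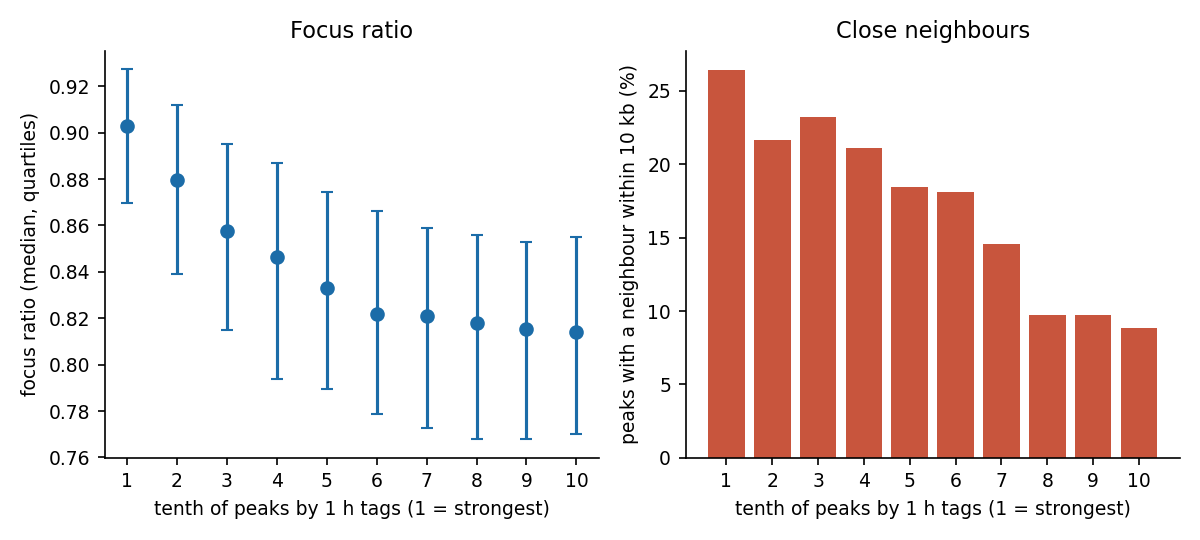
Left, focus ratio (y, median with quartiles) for 10 classes of peaks by 1 h tags (x, 1 is strongest), declining from 0.903 to 0.814. Right, share of peaks with another peak within 10 kb (y, %), from 26.4% in the strongest to 8.88% in the weakest class.

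Every autosome and chromosome X carried sites, at unequal density. Over the span from the first to the last annotated gene the list held 2.16 peaks per Mb. Chromosome 19 was densest with 3.06 per Mb (178 peaks), followed by chromosomes 13 and 2 with 2.69 and 2.68. Chromosome 2 held the most peaks, 480. The lowest densities were 0.785 on X (134 peaks), 1.37 on chromosome 14 and 1.67 on chromosome 12. Density had a Spearman rho of 0.60 with the density of protein-coding genes over the 20 chromosomes.

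The untreated level in the windows differed between chromosomes and moved with the 1 h level. The mean was 15.9 raw untreated tags per window on chromosome 15, 15 on chromosome 3 and 14.6 on chromosome 10, against 6.65 on X, 6.92 on chromosome 12 and 8.72 on chromosome 14. The median 1 h peak held 24.6, 22.7 and 22.5 tags on chromosomes 15, 3 and 10, and 13.45, 13.4 and 14.9 on X, 12 and 14. The local level, taken as the 1 h tags divided by the fold over the surrounding 10 kb, had medians of 2.12 and 2.15 on chromosomes 3 and 10 against 1.01 and 1.08 on X and 12. Spearman's rho over the 20 chromosomes was 0.96 between the untreated mean and the median 1 h tags, and 0.60 between the untreated mean and peak density. The median ratio went the other way, at 13.3 on chromosome 15 and 12.8 on chromosome 3 against 18.8 on chromosome 12 and 17.5 on X (rho -0.62). Untreated tags are also the denominator of that ratio, and their part in this rho was not tested. The minimum fold and the minimum score act on these same tags, and the part of the background level in peak density and peak strength was not tested.

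**Figure D3:**
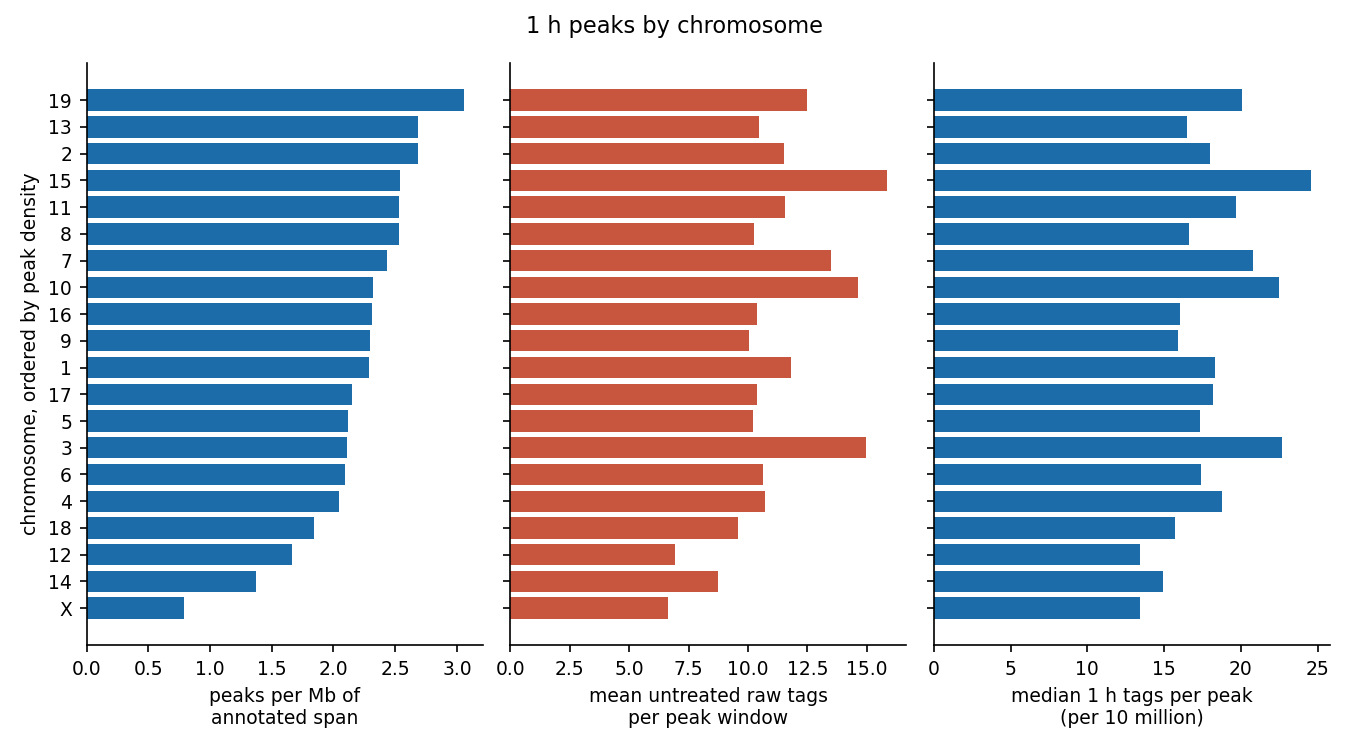
For each chromosome (y, ordered by peak density) the bars give peaks per Mb of annotated span, mean untreated raw tags per peak window, and median 1 h tags per peak. Chromosomes 15, 3 and 10 have the longest middle bars (15.9, 15 and 14.6) and X the shortest (6.65).

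The deposited peak names carry numbers, some of which are skipped. Within each chromosome the names are numbered in order of falling score, without exception, and 3467 numbers are skipped up to the last listed one, against 3744 candidates that the header reports as removed. If each skipped number is a removed candidate, 55.0% of candidates were removed on chromosome 15, 53.9% on chromosome 10 and 50.4% on chromosome 3, against 8.68% on chromosome 12 and 9.46% on X. The rho with the untreated mean was 0.88. On 6 chromosomes the first listed peak is not number 1. The listed site of highest score on chromosome 9, inside Zbtb16, is number 10, and on chromosome 2 the leading site is number 5. What a skipped number stands for was not tested. In all, 20 such numbers precede the first listed peak of their chromosome.

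The strongest site of a chromosome varied by more than 3-fold. On chromosomes 12, 14 and X it held 154, 117 and 152 tags, inside Efcab11, inside Fhit, a gene of dinucleotide hydrolysis, and inside Tlr7, a sensor of single-stranded RNA. On the remaining 17 chromosomes it held at least 224 tags. For chromosomes 8, 10 and 19 the leading sites were inside Col4a2, 11.4 kb from Rab21 and 0.706 kb from Frmd8, with 228, 265 and 239 tags.

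Distances between sites were uneven. The distance from a peak to its nearest neighbour had a median of 52237 bp and a mean of 166954 bp, and 25% of peaks had a neighbour within 15436 bp. Of all peaks 969 had a neighbour within 10 kb (17.2%, 16.2 to 18.2%), 395 within 5 kb and 66 within 1 kb, where the caller allowed none closer than 564 bp. At the other end, 131 peaks were more than 1 Mb from any other. Linking peaks at 10 kb gave 447 groups, of which 387 were pairs and 60 had 3 or more peaks. Peaks in groups held a median of 23.2 tags, against 17.4 for peaks alone, and their median untreated tags were 11 raw in both. Their fold over the surrounding 10 kb was lower, 10.2 against 11.7; a neighbour inside that region enters it. In a group the strongest peak held a median of 59.0% of the tags. Neighbours within 10 kb were commonest in the strongest 10% of peaks, at 26.4%, and least common in the weakest, at 8.88%. Within 5 kb the strongest class did not lead, with 9.22% against 10.3, 10.5 and 10.8% in the next 3 classes and 1.95% in the weakest.

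**Figure D4:**
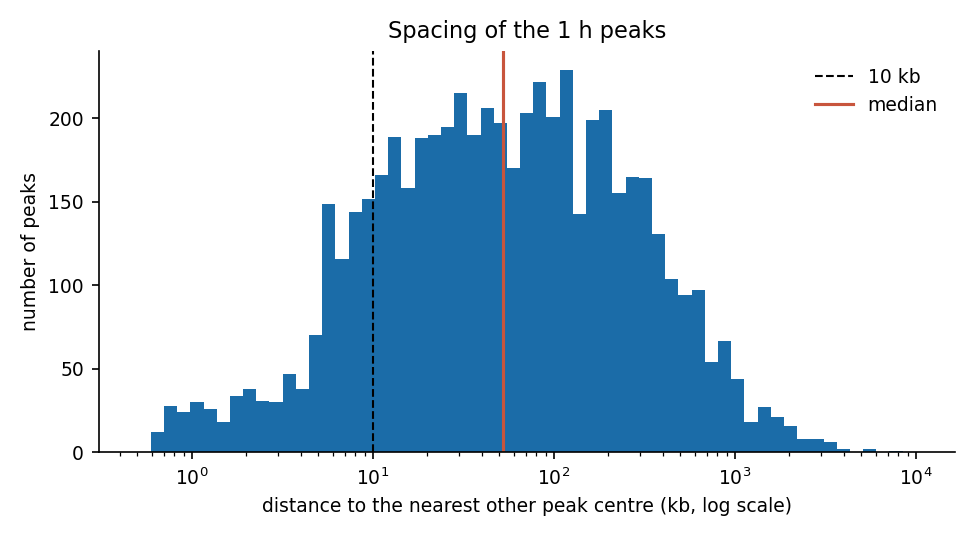
Number of peaks (y) by distance to the nearest other peak centre in kb (x, log scale), with the 10 kb link distance dashed and the median of 52237 bp in red. The distribution is broad, from 623 bp to 7860 kb.

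The largest group was at Tsc22d3, which encodes the anti-inflammatory leucine zipper protein GILZ. It had 7 peaks over 32.2 kb on chromosome X (140505853 to 140538018) with 19.3 to 98.4 tags and 464 in sum, so that 7 of the 7 exceeded the median of the list, on a chromosome whose own median was 13.45. Of these, 6 were nearest to Tsc22d3 and the outermost to Prps1. A group of 5 inside Zbtb16, a zinc finger factor gene, spanned 16.7 kb with 21.6 to 250.2 tags. A group of 5 nearest to Myo16, an unconventional myosin gene, spanned 25.8 kb with 126, 40.1, 23.3, 21.0 and 16.5 tags (chromosome 8, 10646456 to 10672258). Of 7 groups of 4, those with the highest summed tags are named. They were led by the first-ranked site, nearest to Ptpn1, and by the leading site inside Tns1, and held 728 and 400.5 tags in sum. In the first, 3 peaks were strong, with 433, 150 and 132 tags, whereas at Tns1 a single peak of 342 stood beside others of 14.9 to 22.6.

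Over wider distances 66.0% of 2623 bins of 1 Mb held a peak, and the 412 bins with 5 or more held 50.3% of the list. The highest count was 20, in a pair of bins named here after their values were seen. On chromosome 13 from 52 to 53 Mb the 20 peaks reached 201, 115 and 87.8 tags at sites nearest to Syk, a tyrosine kinase gene, at 3.28, 16.5 and 87.6 kb. Sites nearest to Diras2 and to the stress gene Gadd45g reached 109 and 39 tags, but 255 and 266 kb away. Nfil3, a clock output repressor, had 31.7 at 3.21 kb. On chromosome 8 from 120 to 121 Mb the highest of 20 peaks held 46.4 tags, inside Crispld2. The next held 33.7 and 29.7, nearest to the forkhead gene Foxf1 but 164 and 158 kb from it, while 7 lay inside Gse1 at 9.94 to 15.2 tags. Equal counts thus came with different strength.

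Beyond the 10 strongest sites, ranks 11 to 40 covered 30 peaks on 17 chromosomes with 213.5 to 297 tags at 1 h and 0.379 to 3.66 untreated. Their ratios ran from 65.3 to 661 with a median of 143, and the groups of values did not overlap, as the list requires. Inside a protein-coding gene lay 11 of the 30 (36.7%, against 42.9% of all peaks), 9 were within 25 kb of one and 8 more than 50 kb away.

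Foxp1, a forkhead repressor, held 276 tags inside its span against 1.64 untreated (chromosome 6, 99447215 to 99447497). Foxo1, a forkhead factor restrained by insulin signalling, was nearest to a site with 253 tags against 1.77 untreated, at 251 kb. Zfp36l2, which promotes decay of AU-rich mRNAs, was nearest to a site of 256 tags at 67.3 kb with a focus ratio of 0.742, the lowest of the 30, and had another peak of 106 tags 7.97 kb from its span, nearer to Thada.

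Bcl2l1, whose product Bcl-xL blocks apoptosis, held 288 tags inside its span against 1.89 untreated, a ratio of 152 (92.0 to 272). Wee1, an inhibitory kinase of CDK1, had 222 tags 4.95 kb from its span against 3.41 untreated, the lowest ratio of the 30 (65.3, 44.7 to 99.3). Sgk1 was nearest to a site of 243 tags at 96.3 kb (ratio 241, 122 to 558). That distant site held over 3 times the tags of either peak within 25 kb of the gene, with 72.3 and 46.9.

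Fkbp5, a co-chaperone gene of steroid receptors, held 264 tags inside its span against 1.77 untreated (ratio 149, 88.7 to 273). Adra1b, an adrenergic receptor gene, was nearest to a site of 257 tags at 91.0 kb, and Col3a1, a fibrillar collagen gene, to one of 238 at 6.54 kb.

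Micall1, an organiser of endocytic recycling, held 263 tags inside its span. Agfg2 held 260.2 inside its span. Rab21, an endosomal GTPase, had 265 tags at 11.4 kb, and Atp6v1g1, a subunit of the vacuolar proton pump, 265 at 22.9 kb. Cdh22, a cadherin, held 252 tags inside its span, and Col4a2, a basement membrane collagen, 228. Plin4, a lipid droplet coat protein gene, held 228 tags, and Slc38a4, an amino acid transporter gene, 240.4, both inside their spans. Arrdc2, an arrestin domain gene, had 213.5 tags 1.42 kb from its span against 0.884 untreated (ratio 242, 117 to 602). The RNA helicase gene Dhx8 was nearest to a site of 291 tags at 32.3 kb, and Asb4 to one of 264.5 at 10.3 kb. The highest untreated level, 3.66, was at the site of rank 11, 338 kb from Bpnt2, with 297 tags at 1 h.

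Gene lists were read against all 21631 protein-coding genes, of which 3697 (17.1%) had a peak within 25 kb of their span. Over 13 lists, 97 of 277 members had one (35%). For 19 of the 97 the strongest such peak lay nearer to another gene. Shares depend on the length of the spans, which differed between lists, so median spans are given beside them; the median over all protein-coding genes was 17.3 kb. The part of span length in the shares was not tested. The lists and their members were chosen with earlier results of these data known. The lists also do not hold every gene of a family or pathway. Their shares are therefore descriptions, and no measure of an excess over all genes. The median of the strongest peak per gene was 19.9 tags over all genes with a peak.

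Genes that restrain inflammation had a peak at 10 of 18 members (55.6%, median span 11.4 kb, median strongest peak 34.9 tags). Zfp36l2 had 106 tags, Irak3, an inhibitor of Toll-like receptor signalling, 98.2 inside its span, Tsc22d3 82.9, and Zfp36, which like Zfp36l2 destabilises mRNAs, 48.1 at 0.242 kb. Untreated raw tags at these were 7, 15, 9 and 4. The Zfp36 peak, with the fewest, had a ratio of 95.2 (37.0 to 351.5) on chromosome 7. The ratio of the Zfp36l2 peak was higher, at 119.8 (57.9 to 298.8). Krüppel-like factors, zinc finger regulators of differentiation, had a peak at 7 of 13 (53.8%, median span 14.7 kb, median 42.1 tags). Klf13 led with 327 tags, followed by Klf2 with 79.6 at 15.3 kb, Klf15, a metabolic regulator, with 51.5 at 17.5 kb, and Klf6 with 42.1 at 16.2 kb.

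Actin and focal adhesion genes, which couple the cytoskeleton to the matrix, had a peak at 15 of 26 members (57.7%, median span 71.5 kb, median 31.5 tags). The 3 tensin genes with peaks differed, with 342 tags at Tns1, 186 at Tns2 and 74.9 at Tns3; Tns1 had 11 peaks and the others 1 each. Pdlim5 had 300.5 tags, and Parva, an integrin-linked adaptor, 117. Hippo pathway genes, which control organ size through Yap1, had a peak at 10 of 23 (43.5%, median span 56.5 kb). Nf2, the upstream tumour suppressor merlin, had 150 tags inside its span against 13 raw untreated tags. Tead4, a DNA-binding partner of Yap1, had 96.8 tags against 4 raw, Vgll4, a competitor of Yap1, 29.3, and Tead1 24.5. Notch pathway genes had a peak at 10 of 18 (55.6%, median span 29.7 kb), with a median strongest peak of 20 tags, against 21.65 in the Hippo list and 19.9 over all genes: Numbl 38.5 (nearer to Coq8b), the ligand gene Jag2 34.2, the receptor genes Notch1 23.5 and Notch4 22.3.

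**Figure D5:**
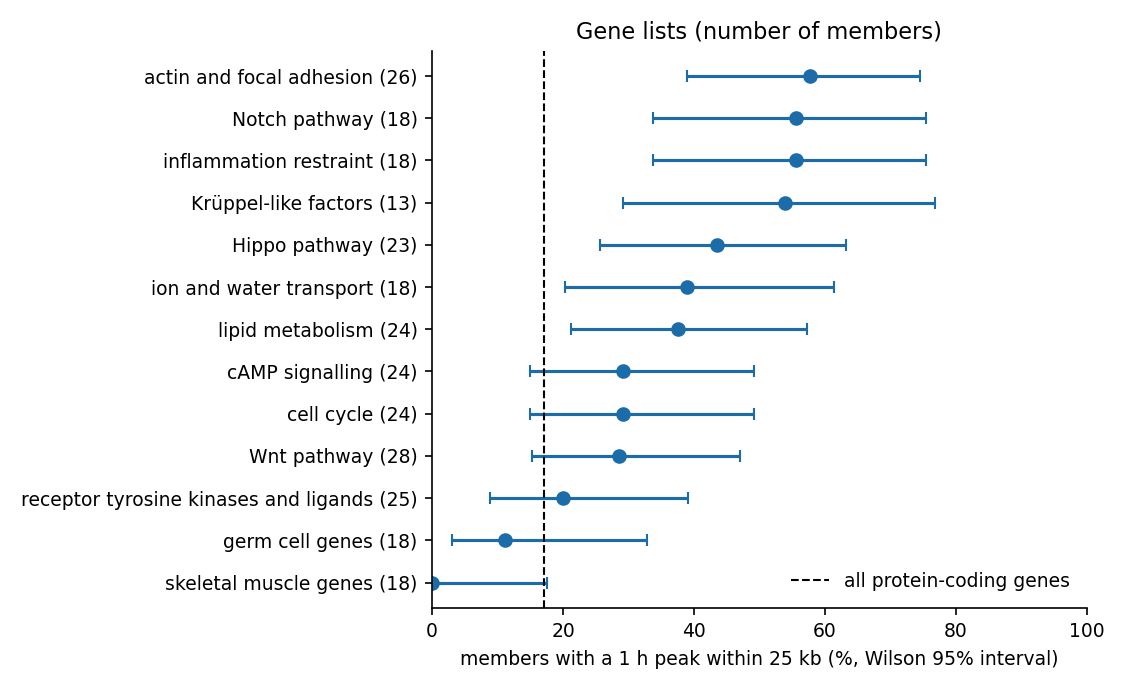
Share of each list's members with a 1 h peak within 25 kb (x, %, points with Wilson 95% intervals) for the 13 lists (y, with member numbers), beside the 17.1% of all protein-coding genes (dashed). Points run from 0% for skeletal muscle genes to 57.7% for actin and focal adhesion genes. The lists were chosen with earlier results of these data known, so the intervals are no test of an excess.

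Genes of ion and water transport had a peak at 7 of 18 (38.9%, median span 39.4 kb). Nedd4l, a ubiquitin ligase that removes the epithelial sodium channel, had 94.0 tags, and Sgk1, which restrains Nedd4l, 72.3. The channel genes Scnn1b and Scnn1a had 15.5 and 8.61, both under the median of all 1 h peaks, 18.3. Lipid metabolism genes had a peak at 9 of 24 (37.5%, median span 27.3 kb), led by Plin4 with 228 tags. Pnpla2, a triglyceride lipase gene, had 57.9 at 17.9 kb, nearer to Tspan4, Lpin2 24.8 and Insig2 22.2. The cell cycle list had a peak at 7 of 24 (29.2%, median span 9.82 kb). Cdkn1a, the inhibitor p21, had 112 tags inside its span against 7 raw untreated tags, Ccnd3, a D-type cyclin, 110 against 13, Gadd45b 43.8 and Ccnd1 18.6, the last 2 nearer to Gng7 and LTO1.

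The cAMP list had a peak at 7 of 24 (29.2%, median span 109 kb). Pde4d, a cAMP phosphodiesterase gene, had 307 tags, against 39 near Adcy7, 17.0 near Adcy5 and 13.5 near Pde4c, the first nearer to Brd7 and the others to Hacd2 and Iqcn. The phosphodiesterase gene Pde2a, nearest to a peak of 97.2 tags, was not in the list. Wnt pathway genes had 8 of 28 (28.6%, median span 37.5 kb), with the co-receptor Lrp5 at 77.2 tags, Lgr4 at 42.3, the ligase Znrf3 at 34.1 and Dkk3 at 19.9. Receptor tyrosine kinases and ligands had 5 of 25 (20%, median span 57.0 kb), near the share of all genes. They were Axl with 91.1 tags, Nrg1, an ERBB ligand gene with 6 peaks, with 79.5, Tgfa, an EGFR ligand, with 37.8, Fgf1 with 15.7 (nearer to Arhgap26) and Met with 13.4; Egfr and the ERBB receptor genes had none.

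Genes of other tissues served as contrasts, in lists also chosen with earlier results of these data known. Skeletal muscle genes had a peak at 0 of 18 members (median span 12.9 kb), which allows a share of up to 17.6% by the Wilson interval and therefore includes the share of all genes. Germ cell genes had 2 of 18 (11.1%, median span 13.9 kb), Nobox with 17.7 tags and Zp2 with 11, each nearer to another gene, Arhgef5 and Tmem159. The intervals of the germ cell, receptor tyrosine kinase, cAMP, cell cycle and Wnt lists also included the share of all genes. Their lower limits were 3.10, 8.86, 14.9, 14.9 and 15.25%. The members were picked and not drawn at random. Whether an interval includes or leaves out the share of all genes is therefore no test of any list.

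MicroRNA genes were looked at last, after their values were seen. Of 1005 annotated hairpins 52 had a peak within 10 kb (5.17%). With 1 peak taken per hairpin these were 49 distinct peaks, since some hairpins share a cluster. The mature sequences below are shown because both clusters of the miR-29 family, known as a repressor of collagen mRNAs, had a site, as did miR-21a, which is abundant in epithelial tumours. Capitals mark the seed, bases 2 to 8, which the 3 miR-29 members share. Sequences are from RefSeq, GRCm38.p6.
mmu-miR-29a-3p: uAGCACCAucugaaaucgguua
mmu-miR-29b-3p: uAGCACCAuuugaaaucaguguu
mmu-miR-29c-3p: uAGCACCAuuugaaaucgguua
mmu-miR-21a-5p: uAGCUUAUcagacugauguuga
The peak near Mir29c and Mir29b-2 held 44.9 tags at 1 h against 2.15 untreated, 3.66 and 3.15 kb from the hairpins (chromosome 1, 195033746 to 195034028). Its nearest protein-coding gene was Cd46. The peak near Mir29a and Mir29b-1 held 30.1 against 1.64, 8.26 and 7.91 kb away. Its nearest protein-coding gene was Klf14, which was not in the Krüppel-like factor list. Mir21a had a peak of 31.1 tags against 1.01 at 3.14 kb, nearest to its neighbour Vmp1. Mir139, inside the phosphodiesterase gene Pde2a, had 97.2 against 1.64 at 1.93 kb. Which transcript, if any, these sites act on was not measured.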

How the data were processed

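GR ChIP-seq peak lists of 1 untreated and 1 corticosterone-treated (1 h) library were used, of 79203826 and 90556119 tags. The submitters' processing notes name bcl2fastq 2.17, Bowtie2 2.2.6, the build mm10 and HOMER, with no version for the last. Per the file headers, the authors called the 1 h peaks from that library alone against the untreated ChIP library, at a false discovery rate of 0.001, a score of at least 75, and a fold of at least 6 over the untreated library and over the surrounding 10 kb. They reported 9382 candidates, 2555 removed against the control and 1189 against the local region.

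The deposited signal is the tag count scaled by HOMER to 10000000 tags. The focus ratio is a fraction deposited by the authors, and the score, the ratio (fold) over control and local region, and the p-value per peak are the authors' own values from the caller; the p-values were not used. Deposited 1 h tags scaled to the untreated library came out whole (tolerance 0.1) in 100% of peaks when scaled back to raw tags. Untreated tags are whole except where 0.5 stands for none, which was read as 0 with a floor of 3 tags for ratios.

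Python 3.11.15 with numpy 2.4.6, pandas 2.3.3, scipy 1.17.1 and matplotlib 3.10.9 was used, and the spacing and gene functions were tested on simulated data. Intervals are exact binomial for ratios, Wilson for shares and order-statistic for medians, at 95%. They cover counting error or the spread over sites, and tags without molecular identifiers are not independent molecules. Genes are RefSeq spans of GRCm38.p6, the assembly of mm10, so that exons and transcript ends were not used here; distances are from peak centre to span, and all 277 list members matched. Named peaks are ranks 11 to 40 by tags, the strongest per chromosome and the 5 largest groups, with ties in size broken by summed tags. Among the strongest 10%, the 5 extremes of focus ratio, untreated tags and ratio are named. Also named are 3 of the 26 peaks at the minimum score, up to 4 members per list and the strongest promoter peaks. Some of these stand in the text as counts or ranges. The members and lists were chosen with earlier results of these data known.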

Additional observations from a re-analysis of the deposited data

Results flagged for a closer look

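On the unplaced scaffold Un_GL456360, which holds no annotated gene used here, the 1 h list had 1 peak of 13 tags per 10000000, at a fold of 20.6 over the 5 raw tags of the untreated library and a focus ratio of 0.9. It stands out as signal outside the chromosomes compared.

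The untreated list, not used in the comparisons, held 1 peak with 317 raw tags at a fold of 44.2 over its input control. Its focus ratio was 0.632. It is signal in a list outside the comparison above.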

How the results depend on the processing

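Values that depend on a distance or on the peak threshold moved with it. With the 2067 peaks that reached 2 times every minimum of the caller, the median ratio was 29.1, the share of tags in the strongest 10% 31.0%, the median focus ratio 0.881, the share of peaks with a neighbour within 10 kb 6.34%, the density of the densest autosome, still chromosome 19, 1.13 per Mb, the share of protein-coding genes with a peak within 25 kb 7.76%, and 45 list members had a peak. Fewer peaks alone lower the last 4. Chromosome X kept the lowest density among X and chromosomes 3, 10, 12, 14, 15 and 19, with 0.287 per Mb. The median ratio was 12.9 with 1 raw tag added to both libraries and 16.2 on raw tags without scaling. A neighbour stood within 5 kb for 7.01% and within 25 kb for 34.2% of peaks. Genes with a peak within 10 kb and 100 kb made up 11.8% and 37.9%, and 161 list members had one within 100 kb; within 10 kb the count was 77, less than 1.5 times lower. Ranking by score instead of tags left the share in the strongest 10% at 37.5%. The promoter motif share was 1.00% for the full element, 1.49% when the peak centre had to lie in the window, and 16.0% for the looser form; 29.0% for AGAACA and 20% for the AP-1 site were added after seeing the data. No paired analysis was possible because each condition had 1 library. For the same reason no replicate could be left out. At a median of 11 raw untreated tags per window, counting error limits single ratios.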
